A study of Homo sapiens with 6 samples.

Results

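Cohesin and condensin are ring-shaped protein complexes, each built on a pair of SMC ATPases, that hold and fold chromosomes. The mRNAs of 10 of their subunits were read out in MDA-MB-231 cells, a human line from a basal-like breast cancer, without irradiation (0 Gy) and 24 h after 10 Gy. The genes were taken by name from the deposited expression table. They were the cohesin core genes SMC1A, SMC3, RAD21, STAG1 and STAG2 and the condensin I genes SMC2, SMC4, NCAPD2, NCAPG and NCAPH. These are 10 of 58735 rows of the table, each name matched 1 row, and all 10 passed the filter on low values (a mean of 1 FPKM or more) that left 12128 genes to test. Of the 10 subunits, 5 were called changed, where 35.6% of all tested genes were. SMC3, STAG1 and NCAPG fell and NCAPD2 rose, and NCAPH was called higher, a call lost in 7 of 17 alternative settings.

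Each dose had 3 libraries. All cells carried a non-targeting shRNA (shSCR), and the labels name them SCR with the genotype WT, so no knockdown entered the comparison. The labels do not say whether the 3 libraries of a dose came from separate cultures. The p-values therefore measure the spread between these libraries, which may be technical. A single cell line was used, at 1 dose and 1 time.

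Cohesin encircles sister chromatids from S phase until anaphase and extrudes chromatin loops in interphase. In it SMC1A and SMC3 form the arms of the ring, RAD21 closes it, and either STAG1 or STAG2 is bound to RAD21. Condensin compacts chromosomes in mitosis. Its SMC2 and SMC4 arms are shared by condensin I, which adds NCAPD2, NCAPG and the ring-closing NCAPH, and by condensin II, which adds NCAPD3, NCAPG2 and NCAPH2. Cohesin is also recruited to broken DNA, and several condensin genes belong to the programme that is transcribed late in the cell cycle.

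The libraries held between 15643641 and 28861781 reads on genes, recovered from the deposited FPKM (fragments of a gene per kilobase of its length, adjusted for depth). Behind a single subunit value stood between 708 reads (STAG1) and 15751 reads (NCAPD2). The 7 genes listed as markers of the line were VIM, CD44, KRT18, CAV1, ANXA1, MSN and AXL. All 7 were at a mean of 1 FPKM or more. Their summed level was between 1182 and 1210 FPKM at 0 Gy and between 989 and 1017 FPKM at 10 Gy. ESR1 and PGR, the hormone receptors of luminal breast cells, were at or near 0, while GATA3 and TFF1 reached a mean of 1 FPKM or more, 2 of 7 luminal markers, whose summed level was between 4.17 and 6.35 FPKM in every library. In the comparison across all tested genes, 11.9% were called higher at 10 Gy and 23.7% lower, together 35.6%, at a Benjamini-Hochberg adjusted p under 0.05 by limma. The median log2 fold change of all tested genes was -0.04.

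FPKM is a level per length, and the length used was the union of all exons of a gene. That union was 10484 bases for SMC1A and 4275 for SMC3, and it can exceed the length of the mRNA made. The subunits are ranked here by FPKM, an order that also depends on the gene models. At 0 Gy, RAD21 had the highest value at 74.9 to 77.9 FPKM, followed by NCAPD2, SMC3 and NCAPG, each above the next in every library. NCAPH and SMC1A overlapped in level near 28 to 29 FPKM, and so did SMC4 and SMC2 near 25 FPKM. STAG2 followed at 21.4 ± 0.580 FPKM (SD, n = 3) and STAG1 was the lowest at 6.39 ± 0.209 FPKM. At 10 Gy, NCAPD2 stood first at 81.0 ± 0.660 FPKM and RAD21 second at 73.3 ± 0.943 FPKM, and the order of the other 8 genes was kept. Each subunit then lay above the next in every library, the pairs that had overlapped included.

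**Figure D1:**
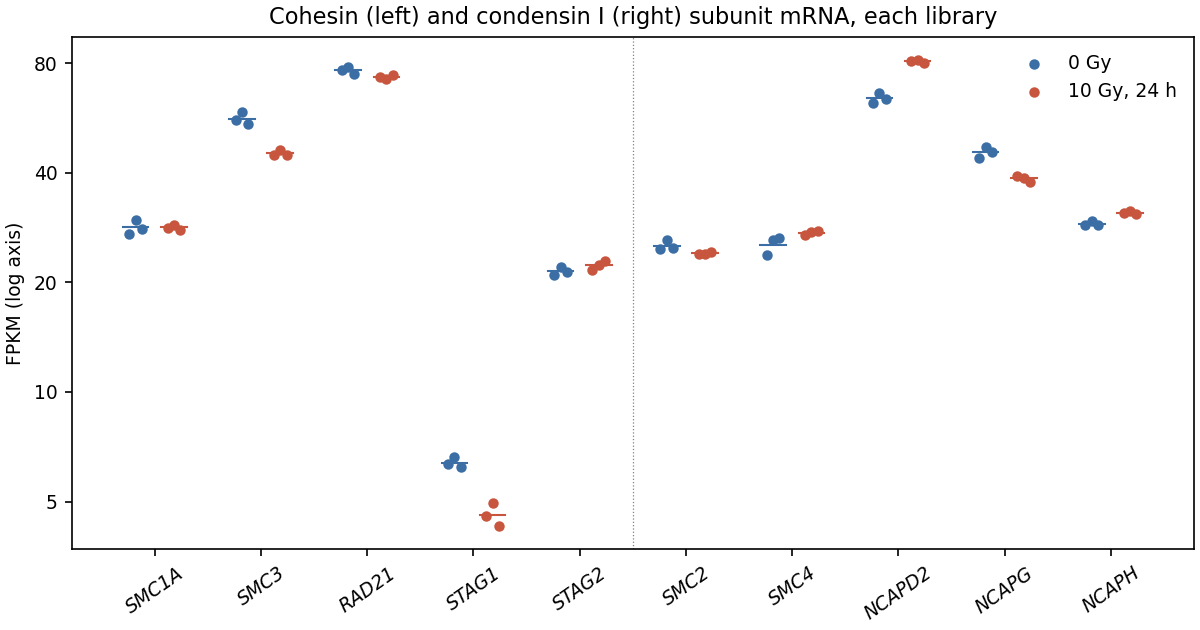
FPKM on a log axis for each of the 10 subunits, with 1 point per library (3 at 0 Gy in blue, 3 at 10 Gy and 24 h in red) and a line at the mean of each group. The 2 groups stand apart most for STAG1, SMC3, NCAPD2 and NCAPG, whereas those of SMC1A and STAG2 overlap.

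Between the doses, the 3 libraries of one group lay wholly above or below the 3 of the other for 8 of the 10 subunits, all but SMC1A and STAG2. The same was true of 51.9% of all tested genes. Among the 10 subunits, 3 were called lower and 2 higher, to be read against the shares of 23.7% and 11.9% given above. This balance depended on the scaling. Under TPM scaling, 2 cohesin core subunits were called lower and 1 higher, and 0 condensin I subunits lower and 3 higher. With that scaling, 1071 of the 12128 tested genes were called lower and 3127 higher. In bulk RNA, fewer cells of a cell cycle stage and less RNA per cell cannot be told apart. Of the subunits, STAG1 alone was both called and changed by at least 1.3-fold on the log2(FPKM + 1) scale, as were 5.77% of all tested genes. Which subunit passed that size depended on the scaling and the pseudocount. Under median-of-ratios, upper-quartile and TPM scaling, STAG1 was at -0.36, -0.32 and -0.29, short of it, and NCAPD2 was at 0.38, 0.43 and 0.46, past it. With a pseudocount of 5, STAG1 was at -0.25 and NCAPD2 at 0.32, both short of it. Without irradiated library 3, STAG1 was at -0.36.

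To set the 5 subunits that changed beside their regulatory sequence, the 250 bases before their RefSeq start sites (GRCh38.p14) are given 5′ to 3′ on the strand of the gene. Capitals mark 3 short strings of letters, none of which overlaps another. The string CCAAT is the box bound by NF-Y, and on the other strand it reads ATTGG. The core of the CHR element, found in promoters of the late cell cycle, was searched as TTTGAA. On the other strand that core reads TTCAAA. A form of the E2F site was searched as TTTCCCGC, also on both strands. The subunits that rose were NCAPD2 (chr12:6493852-6494101, + strand) and NCAPH (chr2:96335516-96335765, + strand).
NCAPD2: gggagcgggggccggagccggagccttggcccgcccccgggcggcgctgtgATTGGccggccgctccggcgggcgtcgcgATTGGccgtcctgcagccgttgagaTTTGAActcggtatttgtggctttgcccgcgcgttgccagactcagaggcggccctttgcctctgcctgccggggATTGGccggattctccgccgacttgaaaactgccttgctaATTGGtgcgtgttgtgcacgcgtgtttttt
NCAPH: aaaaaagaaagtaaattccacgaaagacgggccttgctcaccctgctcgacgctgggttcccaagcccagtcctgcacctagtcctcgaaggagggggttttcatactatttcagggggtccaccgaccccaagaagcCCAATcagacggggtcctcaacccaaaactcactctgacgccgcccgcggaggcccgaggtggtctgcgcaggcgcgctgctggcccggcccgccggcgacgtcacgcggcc

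The subunits that fell were NCAPG (chr4:17810729-17810978, + strand), SMC3 (chr10:110567445-110567694, + strand) and STAG1 (chr3:136752379-136752628, - strand).
NCAPG: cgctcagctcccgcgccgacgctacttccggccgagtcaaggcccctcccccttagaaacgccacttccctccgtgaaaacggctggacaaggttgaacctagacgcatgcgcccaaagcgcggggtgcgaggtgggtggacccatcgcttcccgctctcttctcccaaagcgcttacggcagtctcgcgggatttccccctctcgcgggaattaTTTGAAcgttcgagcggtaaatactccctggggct
SMC3: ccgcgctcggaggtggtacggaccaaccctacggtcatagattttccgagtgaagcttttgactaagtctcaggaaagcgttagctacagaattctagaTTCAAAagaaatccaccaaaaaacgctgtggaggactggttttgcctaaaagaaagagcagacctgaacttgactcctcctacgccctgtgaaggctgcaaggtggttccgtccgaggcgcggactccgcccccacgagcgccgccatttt
STAG1: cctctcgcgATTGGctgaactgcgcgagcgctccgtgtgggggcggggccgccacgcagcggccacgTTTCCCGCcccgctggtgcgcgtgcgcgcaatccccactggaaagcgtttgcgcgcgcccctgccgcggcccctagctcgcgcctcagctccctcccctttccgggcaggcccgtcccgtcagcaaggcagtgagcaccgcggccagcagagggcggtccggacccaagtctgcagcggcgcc

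The NCAPD2 window held 4 CCAAT boxes, all as the reverse complement, at -199, -170, -70 and -30 from the start site, and a TTTGAA string at -145. NCAPH, the other subunit that rose, held a single CCAAT at -112 and neither of the other strings. NCAPG, which fell, held TTTGAA at -35, and SMC3 held its reverse complement at -151. STAG1 held 1 CCAAT as the reverse complement at -241 and TTTCCCGC at -183. Neither CCAAT nor TTTGAA was thus found only in subunits that moved in 1 direction. RAD21 was not searched, because windows on chromosome 8 were left out for the subunits. The other 9 of the 10 subunits had 14 windows in all, since SMC1A, SMC2, SMC4 and STAG2 had more than 1. Of these 14 windows, some of which overlap, 5 held CCAAT, 4 held TTTGAA and 2 held TTTCCCGC (of STAG1 and SMC1A). Over 35116 promoter windows of the same length, the shares were 32.0% for CCAAT, 13.3% for TTTGAA and 1.39% for TTTCCCGC. Windows on chromosome 8 were not left out of these shares. A match describes letters and not a bound site. GENCODE 29, whose gene models the table follows, places the first base of each of the 5 genes whose sequence is given at another position than RefSeq does.

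In cohesin, SMC3 and STAG1 fell and the other 3 core subunits were not called. SMC3 (ENSG00000108055, chr10:110567691-110604636, + strand) was at 55.9, 58.7 and 54.3 FPKM at 0 Gy and at 44.8, 46.2 and 44.9 FPKM at 10 Gy. All irradiated libraries lay below all control libraries, and the mean fell by 19.6%, a log2 fold change of -0.31 (SE 0.036, 95% confidence interval -0.39 to -0.22, limma adjusted p = 0.00146). SMC1A (ENSG00000072501, chrX:53374149-53422728, - strand), the partner of SMC3 in the ring, was at 27.2, 29.6 and 28.1 FPKM and then at 28.3, 28.8 and 27.9 FPKM. The irradiated values of SMC1A fell inside the range of the control values. Its log2 fold change was 0.00, with a 95% confidence interval of -0.09 to 0.09 (limma adjusted p = 0.979), and it was 0.13 under TPM scaling (limma adjusted p = 0.0703). The ratio of SMC3 to SMC1A FPKM went from 1.99 ± 0.0593 to 1.60 ± 0.0126 (SD, n = 3). It does not depend on how a library was scaled, but its level depends on the lengths given to the 2 genes.

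RAD21 (ENSG00000164754, chr8:116845935-116874866, - strand), the subunit that separase cuts at anaphase, was at 76.7, 77.9 and 74.9 FPKM at 0 Gy and at 73.3, 72.4 and 74.3 FPKM at 10 Gy. The groups did not overlap, but the mean at 10 Gy was 0.958 times that at 0 Gy and the difference was not called. The log2 fold change was -0.06 (95% confidence interval -0.13 to 0.01, limma adjusted p = 0.150), close to the median of all tested genes, and its sign turned when libraries were scaled to their upper quartile or to TPM. The FPKM of RAD21 stood at 1.36 ± 0.0279 times that of SMC3 at 0 Gy and at 1.62 ± 0.0461 times at 10 Gy.

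STAG1 (ENSG00000118007, chr3:136336233-136752403, - strand) had the largest fold change of the 10 subunits on the values as deposited, although NCAPD2 exceeded it under the 3 other scalings and with a pseudocount of 5. It was at 6.33, 6.63 and 6.22 FPKM at 0 Gy and at 4.58, 4.94 and 4.29 FPKM at 10 Gy. The lowest control library stood above the highest irradiated one, and the mean fell by 28.0%, a log2 fold change of -0.40 (SE 0.053, 95% confidence interval -0.53 to -0.28, limma adjusted p = 0.00213), which ranked 323 from the lowest among the 12128 tested genes. STAG2 (ENSG00000101972, chrX:123960212-124422664, + strand), the alternative subunit and a gene often mutated in cancer, was at 20.9, 22.1 and 21.3 FPKM and then at 21.7, 22.3 and 22.8 FPKM. Its groups overlapped. The log2 fold change was 0.05 (95% confidence interval -0.03 to 0.13, limma adjusted p = 0.271). STAG2 was called higher under upper-quartile scaling (0.14, limma adjusted p = 0.0219) and TPM scaling (0.18, limma adjusted p = 0.0107). STAG1 made up 23.2%, 23.1% and 22.6% of the summed STAG1 and STAG2 FPKM in the control libraries and 17.4%, 18.1% and 15.8% in the irradiated ones. By FPKM, STAG2 was thus the main form of this subunit at both doses, by a wider margin at 10 Gy.

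In condensin I, the subunits moved in both directions. NCAPD2 (ENSG00000010292, chr12:6493356-6531955, + strand), a HEAT-repeat subunit, was at 62.1, 66.1 and 63.9 FPKM at 0 Gy and at 81.2, 81.5 and 80.3 FPKM at 10 Gy. Every irradiated library lay above every control library, and the mean rose by 26.5%, a log2 fold change of 0.34 (SE 0.033, 95% confidence interval 0.26 to 0.41, limma adjusted p = 0.000781). NCAPG (ENSG00000109805, chr4:17810902-17844862, + strand), the other HEAT-repeat subunit, was at 43.9, 47.2 and 45.6 FPKM and then at 39.3, 38.8 and 37.7 FPKM. Here the irradiated libraries were the lower ones, and the mean fell by 15.3%, a log2 fold change of -0.23 (SE 0.036, 95% confidence interval -0.32 to -0.15, limma adjusted p = 0.00335). Scaling to TPM ended the call of NCAPG, at a log2 fold change of -0.11 (limma adjusted p = 0.0996). The ratio of NCAPD2 to NCAPG, which no scaling of a library changes, was 1.41, 1.40 and 1.40 in the control libraries and 2.07, 2.10 and 2.13 in the irradiated ones.

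NCAPH (ENSG00000121152, chr2:96335787-96373845, + strand), the kleisin that closes the condensin I ring, was at 28.8, 29.4 and 28.8 FPKM at 0 Gy and at 31.0, 31.4 and 30.7 FPKM at 10 Gy. The groups did not overlap and the rise was 7.08%, a log2 fold change of 0.10 (SE 0.028, 95% confidence interval 0.03 to 0.16, limma adjusted p = 0.0334). This call was lost in 7 of 17 alternative settings, among them those without control library 3 (limma adjusted p = 0.0835) and without irradiated library 1 (0.105), 2 (0.119) or 3 (0.0775).

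The shared SMC arms were not called. SMC4 (ENSG00000113810, chr3:160399274-160434962, + strand) was at 23.7, 26.1 and 26.4 FPKM and then at 26.9, 27.5 and 27.7 FPKM. The irradiated libraries lay above the control ones, of which library 1 was the lowest. The log2 fold change was 0.11 (95% confidence interval 0.00 to 0.21, limma adjusted p = 0.105). Without control library 1 it was 0.058 (limma adjusted p = 0.141). SMC4 was called higher under 3 other scalings and on the recovered reads. SMC2 (ENSG00000136824, chr9:104094260-104141417, + strand) was at 24.7, 26.1 and 24.9 FPKM and then at 24.0, 24.0 and 24.2 FPKM. Its irradiated libraries were all lower, with a mean 0.954 times that of the control libraries. The log2 fold change of -0.06 (95% confidence interval -0.14 to 0.01, limma adjusted p = 0.156) was not called, and its sign turned under upper-quartile and TPM scaling. Without control library 2 the log2 fold change of SMC2 was -0.040 (limma adjusted p = 0.352). The ratio of SMC4 to SMC2 went from 1.01 ± 0.0502 to 1.14 ± 0.0117 (SD, n = 3).

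**Figure D2:**
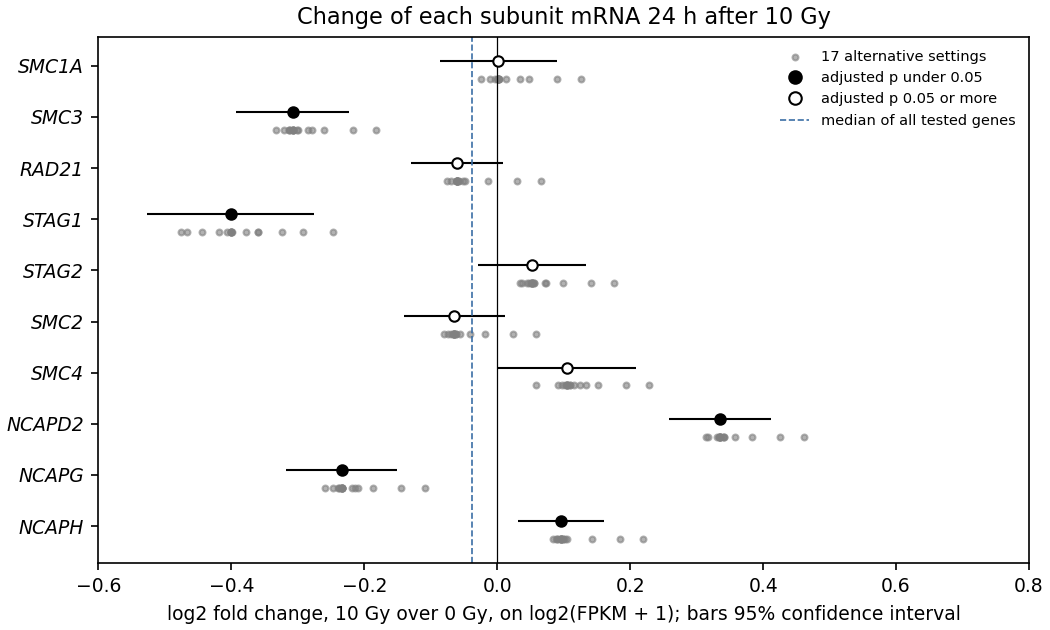
Log2 fold change of each subunit (10 Gy over 0 Gy, on log2(FPKM + 1)), with its 95% confidence interval, filled where the limma adjusted p was under 0.05. Grey points are the values under 17 alternative settings and the dashed line is the median of all tested genes, -0.04. SMC3, STAG1 and NCAPD2 were called under all 17.

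Summed over the complex, the 5 cohesin core mRNAs were at 185 to 195 FPKM at 0 Gy and 173 to 175 FPKM at 10 Gy. The 5 condensin I mRNAs were at 183 to 195 FPKM and then at 201 to 203 FPKM. In control library 1 the cohesin sum was the larger (187.16 against 183.13 FPKM), and in library 2 the sums were nearly equal (194.83 against 194.87). The condensin I sum was the larger in control library 3 (189.63 against 184.77) and in every irradiated library. These sums are carried by the members of highest FPKM, RAD21 and SMC3 in cohesin and NCAPD2 and NCAPG in condensin I. Over the lists, the median log2 fold change was -0.06 over the cohesin core and 0.10 over condensin I, against -0.04 over all tested genes.

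**Figure D3:**
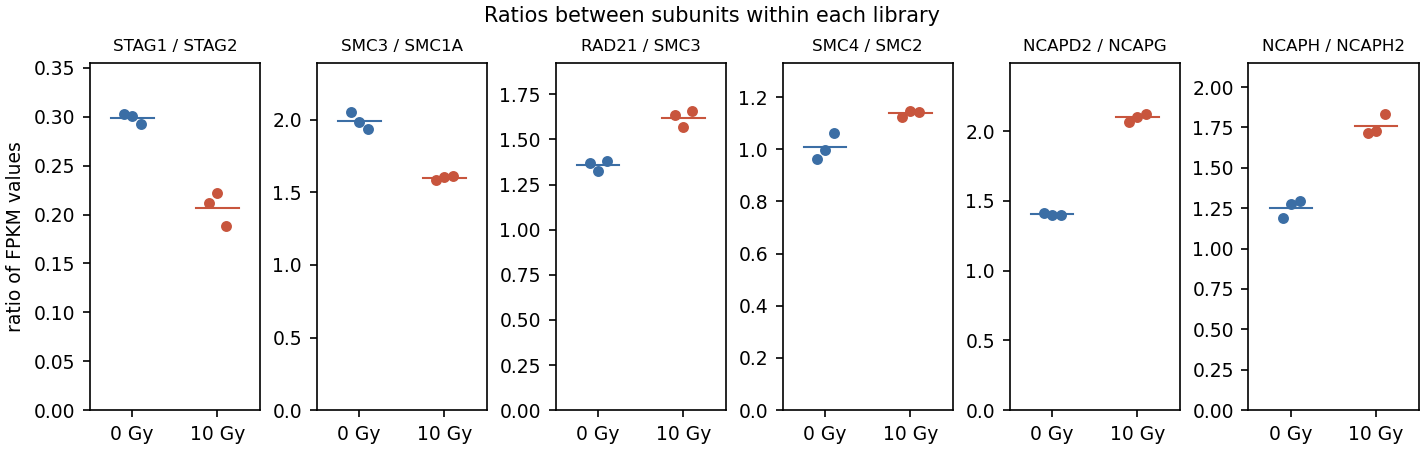
Ratios of FPKM values within each library, with 1 point per library, blue at 0 Gy and red at 10 Gy, and a line at the group mean. In all 6 ratios shown, the 3 irradiated libraries lie apart from the 3 control libraries. STAG1 to STAG2 went from 0.298 to 0.207 and NCAPD2 to NCAPG from 1.40 to 2.10.

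Of the 3 subunits particular to condensin II, NCAPH2 fell and NCAPD3 and NCAPG2 were not called, beside 23.7% of all tested genes called lower and 11.9% higher. Upper-quartile and TPM scaling each called 1 of the 3 higher, where 2556 and 3127 of all 12128 tested genes were called higher. NCAPH2, the kleisin of that complex, was at 24.2, 23.0 and 22.3 FPKM at 0 Gy and at 18.1, 18.1 and 16.8 FPKM at 10 Gy. The groups were far apart, with a log2 fold change of -0.37 (95% confidence interval -0.48 to -0.27, limma adjusted p = 0.00150). NCAPH and NCAPH2, the kleisins of the 2 condensins, moved in opposite directions, and the ratio of NCAPH to NCAPH2 went from 1.25 ± 0.0546 to 1.76 ± 0.0655. NCAPD3 had a log2 fold change of -0.03 and NCAPG2 of 0.02, with groups that overlapped. The ratio of NCAPD2 to NCAPD3 went from 2.79 ± 0.0963 to 3.61 ± 0.0453, and that of NCAPG to NCAPG2 from 1.49 ± 0.0302 to 1.25 ± 0.0222.

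Of 9 genes that load, release or acetylate cohesin, 8 were tested, 2 rose, 2 fell and 4 were not called, beside 11.9% of all tested genes called higher and 23.7% lower. Under TPM scaling 4 were called higher and 1 lower, where 3127 of all 12128 tested genes were called higher and 1071 lower. Both subunits of the loader rose together. NIPBL was at 6.52, 6.74 and 6.90 FPKM at 0 Gy and at 8.24, 8.29 and 7.60 FPKM at 10 Gy (log2 fold change 0.23, limma adjusted p = 0.00829). MAU2 was at 6.56, 6.81 and 6.93 FPKM and then at 8.01, 8.10 and 7.62 FPKM (log2 fold change 0.20, limma adjusted p = 0.00929). Under TPM scaling the log2 fold change of MAU2 was 0.31 (limma adjusted p = 0.00410). The genes that fell act on cohesin during S phase. CDCA5, which encodes sororin and guards cohesion against release, was at 55.9, 50.6 and 51.2 FPKM and then at 44.0, 42.6 and 44.1 FPKM (log2 fold change -0.26, limma adjusted p = 0.00447). Under TPM scaling the log2 fold change of CDCA5 was -0.14 (limma adjusted p = 0.0213). ESCO2, the acetyltransferase of SMC3 in S phase, was between 5.73 and 6.14 FPKM and then between 4.54 and 5.14 FPKM (log2 fold change -0.25, limma adjusted p = 0.00975), a call lost under TPM scaling. The releasing factor WAPL (-0.02), PDS5A (0.03), PDS5B (-0.07) and ESCO1 (0.09) had log2 fold changes that were not called. HDAC8, the SMC3 deacetylase, was below the filter of 1 FPKM.

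Among the 4 genes that cut or protect cohesin in mitosis, PTTG1 and SGO2 rose, beside 11.9% of all tested genes. PTTG1 encodes securin, the inhibitor of separase, and was at 96.6, 85.3 and 81.0 FPKM at 0 Gy and at 123, 122 and 121 FPKM at 10 Gy (log2 fold change 0.48, limma adjusted p = 0.00193). The near-identical PTTG2 and PTTG3P share reads with it if the counting allowed that, and both were listed at 0 in all libraries. SGO2, a shugoshin that shields cohesin from cleavage, was between 11.3 and 12.2 FPKM and then between 14.9 and 15.8 FPKM (log2 fold change 0.38, limma adjusted p = 0.00117). ESPL1, which encodes separase, fell with a log2 fold change of -0.12 (limma adjusted p = 0.0448), a call lost in 11 of 17 alternatives. The ratio of ESPL1 to PTTG1 FPKM went from 0.197 ± 0.0246 to 0.128 ± 0.00252. SGO1 had a log2 fold change of 0.06 and was not called.

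The meiotic cohesin genes SMC1B, STAG3, REC8 and RAD21L1 were all below the filter, and REC8 was the highest of them with at most 1.26 FPKM in a library. In the SMC5/6 complex, a related ring that acts in DNA repair, 8 of 9 genes were tested, 0 were called higher, 2 fell and 6 were not called. The share that fell was near the 23.7% of all tested genes called lower. Its SMC arms had log2 fold changes of 0.02 (SMC5) and -0.06 (SMC6), neither called. The genes that fell were NSMCE4A, with a log2 fold change of -0.35 (limma adjusted p = 0.0109), and NSMCE1, with -0.21 (limma adjusted p = 0.0143). The call of NSMCE4A was lost with no filter on low values, and that of NSMCE1 under upper-quartile or TPM scaling and without irradiated library 1. The number called lower was 3 without control library 2, with voom on the recovered reads and among protein-coding genes only.

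Of 5 genes of the chromosome scaffold and of loop anchors, 3 rose and 1 fell, beside 11.9% and 23.7% of all tested genes. CTCF, the DNA-binding protein at which cohesin halts loop extrusion, was at 8.41, 8.45 and 8.41 FPKM at 0 Gy and at 6.25, 6.08 and 6.35 FPKM at 10 Gy. The 3 values of each group lay close together, and the log2 fold change was -0.38 (95% confidence interval -0.47 to -0.30, limma adjusted p = 0.000696). TOP2A, the topoisomerase that works with condensin on mitotic chromosomes, was at 121, 131 and 124 FPKM and then at 152, 153 and 144 FPKM (log2 fold change 0.25, limma adjusted p = 0.00466). KIF4A, the chromokinesin that binds condensin I, was between 29.3 and 31.5 FPKM and then between 35.1 and 37.8 FPKM (log2 fold change 0.28, limma adjusted p = 0.00331). TOP2B rose with a log2 fold change of 0.11 (limma adjusted p = 0.0426), a call lost in 9 of 17 alternatives, and MKI67, a coat protein of mitotic chromosomes, had a log2 fold change of 0.02 that was not called.

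Markers of cell cycle phases also differed between the doses. Of 20 G2/M genes, 15 rose, 2 fell and 3 were not called, with a median log2 fold change of 0.28. The number called lower was 1 in 12 of 17 alternatives. Their summed level was between 1248 and 1293 FPKM at 0 Gy and between 1508 and 1517 FPKM at 10 Gy. KIF20A rose most of them (0.64, limma adjusted p = 0.000257) and AURKB fell most (-0.22, limma adjusted p = 0.00262). Of 15 S phase genes, 14 fell, 0 were called higher and 1 was not called, with a median log2 fold change of -0.34. Over all tested genes, 11.9% were called higher and 23.7% lower. Their summed level was between 859 and 907 FPKM and then between 690 and 708 FPKM, and RRM2, the small subunit of ribonucleotide reductase, fell most (-0.67, limma adjusted p = 0.000227). The part of cell cycle phase in the changes of the subunits was not tested.

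**Figure D4:**
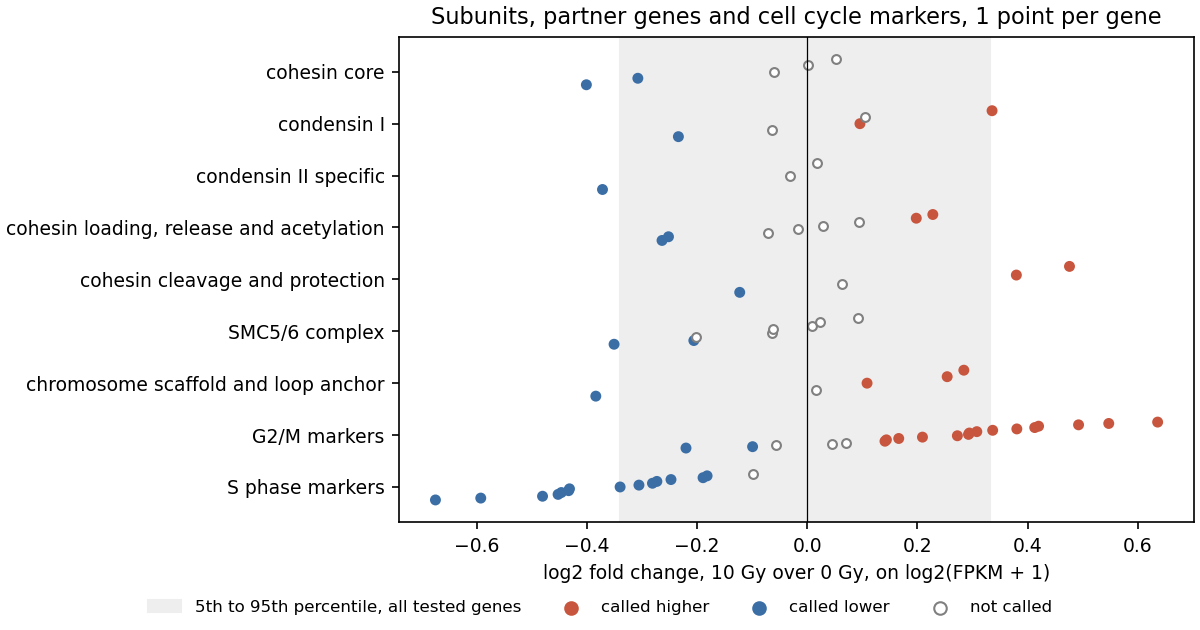
Log2 fold change (10 Gy over 0 Gy, on log2(FPKM + 1)) of each tested gene of 9 lists, red where called higher, blue where called lower and white where not called. The grey band spans the 5th to 95th percentile of all tested genes, -0.34 to 0.33. S phase genes lie left of 0, most G2/M genes lie right of it, and the cohesin and condensin lists hold genes on both sides.

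The gene models set a limit on some subunits, because the sources used here do not state whether reads were counted by strand. Exons of a gene on the opposite strand cover 33.1% of the exon bases of NCAPG (LCORL), 21.2% of those of STAG1 (PCCB), 25.6% of those of SMC4 (IFT80 and TRIM59) and 7.49% of those of NCAPD2 (MRPL51). The exons of RAD21 are covered to 14.2%, mostly by UTP23. PCCB was between 4.01 and 4.11 FPKM at 0 Gy and between 3.13 and 3.56 FPKM at 10 Gy, lower at 10 Gy as STAG1 was. MRPL51 was between 89.9 and 103 FPKM and then between 81.5 and 83.3 FPKM, lower where NCAPD2 was higher. LCORL was between 1.95 and 2.47 FPKM and then between 2.31 and 2.40 FPKM, with groups that overlap. Their part in the subunit values was not tested. SMC3, SMC2 and NCAPH share no exon base with another gene.

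Across the 6 libraries, the subunits that moved the same way tracked each other, as the dose difference alone would give. Pearson's r on log2(FPKM + 1) was 0.98 between SMC3 and STAG1, 0.97 between SMC3 and NCAPG and 0.99 between NCAPD2 and NCAPH, and -0.94 between SMC3 and NCAPD2. The points share the 2 doses, so these values describe the libraries. Within the control group, library 2, which had the fewest reads, held the highest FPKM for 9 of the 10 subunits.

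For each complex, the 5 genes most like its mean profile were sought among 6834 protein-coding genes at 5 FPKM or more, as Pearson's r over the 6 libraries with the mean of its standardised members. For the cohesin core they included APPL1 (r = 0.997), SEMA3C (0.985), SEC22C (0.982) and MIA3 (0.980). For condensin I they included BRPF3 (r = 0.993), FNIP1 (0.99), ASXL2 (0.99) and RUNDC1 (0.99). As the best of so many genes over so few libraries, they are high by selection. The r of a member with its own mean ranged from 0.82 (SMC3) to -0.03 (STAG2) in cohesin and from 0.84 (SMC4) to -0.26 (NCAPG) in condensin I. The cohesin profile was highest in control library 2, at 1.13 in units of the standardised levels, against -0.02 and 0.05 in the other control libraries.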

How the data were processed

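The authors deposited FPKM values for 6 shSCR libraries of MDA-MB-231 cells, 3 at 0 Gy and 3 collected 24 h after 10 Gy, grouped here by the treatment in the labels. The submitters' processing notes name HISAT2 and GRCh38. Libraries were polyA selected and read as pairs. The counting program and its strand setting are not given in the sources used here. Gene coordinates of the 10 subunits equal those of GENCODE 29, and their deposited lengths equal its exon unions. FPKM times length and implied depth gave whole reads for 100% of values above 0 (tolerance 0.05), between 15643641 and 28861781 per library. The values carry a library scaling factor between 0.973 and 1.04.

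The test was limma 3.58.1 (R 4.3.3) on log2(FPKM + 1), which understates changes of low genes, with eBayes, an intensity trend and Benjamini-Hochberg adjustment over the 12128 genes whose mean was 1 FPKM or more. Genes with an adjusted p under 0.05 were called. The procedure was also run on counts simulated with the same small spread for all genes and no difference between libraries beyond depth. That run does not show how many calls in these data are false. Named were all 10 subunits, genes of 10 lists written from general knowledge, genes overlapping a subunit, and the 5 protein-coding genes outside the lists with the highest r to each complex's mean profile, of which 1 per complex is not reported here. PTTG2 and PTTG3P were named after their values were seen. The subunits and lists were chosen with earlier results of these data known. Alternatives were 2 other pseudocounts, no filter and a filter at 5 FPKM, 3 scalings (median-of-ratios, upper-quartile, TPM), the replicate block, no intensity trend, voom on recovered reads, protein-coding genes only, and each library left out. Promoter sequences are RefSeq's for GRCh38.p14, cut to the 250 bases before the start site. Python 3.11.15 and matplotlib 3.10.9 made the figures.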

Additional observations from a re-analysis of the deposited data

How the results depend on the processing

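SMC3, STAG1 and NCAPD2 kept their direction and their call under all 17 alternatives, with log2 fold changes of -0.33 to -0.18, -0.48 to -0.25 and 0.31 to 0.46. TPM scaling moved the median log2 fold change of all genes from -0.04 to 0.07 and upper-quartile scaling moved it to 0.04. The share of called genes that were higher was 33.4%, against 48.7% under median-of-ratios, 63.9% under upper-quartile and 74.5% under TPM scaling. Genes called higher numbered 1443, against 2556 (upper-quartile), 3127 (TPM) and 874 (mean of at least 5 FPKM), and genes called lower numbered 2874, against 1444, 1071 and, with no filter, 1815. Both scalings turned RAD21 to 0.030 and 0.066 and SMC2 to 0.024 and 0.059, and called 1 cohesin core subunit higher, STAG2, at log2 fold changes of 0.14 and 0.18. TPM scaling left 0 condensin I subunits called lower. SMC4 was called higher under median-of-ratios (0.15), upper-quartile (0.19) and TPM scaling (0.23) and with voom (0.11).

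Condensin I subunits called higher numbered 1 in place of 2 without the intensity trend and under the replicate block, NCAPH being lost in both. The replicate block gave 1137 genes higher and 2366 lower. Same-numbered libraries did not deviate together, with correlations of -0.04, -0.03 and -0.10 against up to 0.09 between different numbers. No pairing by number was seen, though with 3 libraries a dose these values cannot exclude one. With each library left out in turn, between 852 and 1393 genes were called higher and between 1808 and 2630 lower, with the lowest counts without irradiated library 2 (852 and 1808) or 1 (875 and 1830), and condensin I subunits called higher numbered 1 to 2. SMC1A, not called under any setting, ranged from -0.025 to 0.034 with a library left out and reached 0.05, 0.09 and 0.13 under median-of-ratios, upper-quartile and TPM scaling. It turned to -0.025 without control library 1, -0.0040 without control library 3 and -0.010 without irradiated library 2. The cause of these changes was not tested. With 3 libraries a dose, the confidence intervals of the subunits spanned 0.13 to 0.25 on the log2 scale, which limits what the uncalled subunits can show.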
